A study of Bos taurus with 18 samples.

Results

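Of the 27607 gene identifiers in the table, 12 met a rule for genes at least 3-fold higher in every serum-free medium than in both serum-containing media. They were picked from the group means. In each group the CPM (the count of a gene scaled to a common library total) of the 3 replicates was averaged and 0.5 was added. The lowest of the 4 serum-free means had to be at least 5 and at least 3 times the higher of the 2 serum-containing means. DM and GM could differ by at most 3-fold, and SFDM and DMEM by less than 4-fold. These last 2 limits removed no gene. The members were therefore chosen for a gap between serum-free and serum-containing cultures, and that gap is described here without a test.

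The cells were bovine satellite cells of the Belgian Blue breed. At 72 h, cells that had grown without serum were in 1 of 3 media: a differentiation medium without serum built on DMEM (the DMEM group), its counterpart built on DMEM/F-12 (SFDM), or the serum-free base medium alone (SFB). At 0 h such cells were in serum-free growth medium (SFGM). Cells grown with serum were taken at 72 h from differentiation medium with 2% fetal bovine serum (DM) and at 0 h from growth medium with 20% serum (GM). Each of the 6 groups had 3 replicates, A, B and C, and poly(A) RNA was sequenced from all 18 cultures. All cells were kept on collagen, and what the letters stand for beyond biological replicates is not stated.

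Satellite cells are the resident stem cells of skeletal muscle. When growth signals are withdrawn they leave the cell cycle and fuse into multinucleated myotubes, and in serum-based culture this is brought about by lowering the serum. Serum is an undefined mixture of growth factors, hormones, lipoproteins, carrier proteins and attachment factors. Serum-free media replace it with a defined set of supplements, so cells in such media lack many of its components at the start and at the end of differentiation. The formulas of the media are not in the labels.

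The library totals ran from 16162525 counts (SFDM replicate A) to 28589018 (SFGM replicate B). Replicate C stood apart in most groups. A chi-square comparison of the counts gave 1.85 to 10.2 per degree of freedom between replicates A and B of a group, and 5.15 to 41.9 where C was one of the pair. The identifiers could not be paired with gene names, so what these genes do is not described, and the labelled cell type could not be checked against marker genes. The 12 are numbered by the size of the gap, member 1 having the largest, and 4 of them are given by identifier. In bulk RNA, fewer cells that express a gene and less of its RNA per cell cannot be told apart.

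The pattern was rare. A mean of at least 5 (CPM + 0.5) in all 4 serum-free media was reached by 9981 identifiers, and in 652 of them the lowest serum-free mean was above the higher serum-containing one. The ratio of these means was at least 2 for 38 identifiers, at least 3 for the 12 members and at least 4 for 5 of them. Taken alone, DMEM passed the 5 and 3-fold limits for 183 identifiers, SFDM for 126, SFB for 101 and SFGM for 122. With the limits turned round, 2 identifiers were higher in both serum-containing media than in all 4 serum-free ones. The 3 members closest to the 3-fold limit had ratios of 3.15, 3.18 and 3.29. The 3 identifiers just outside it had 2.86, 2.83 and 2.82, with no wide gap at the limit.

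**Figure D1:**
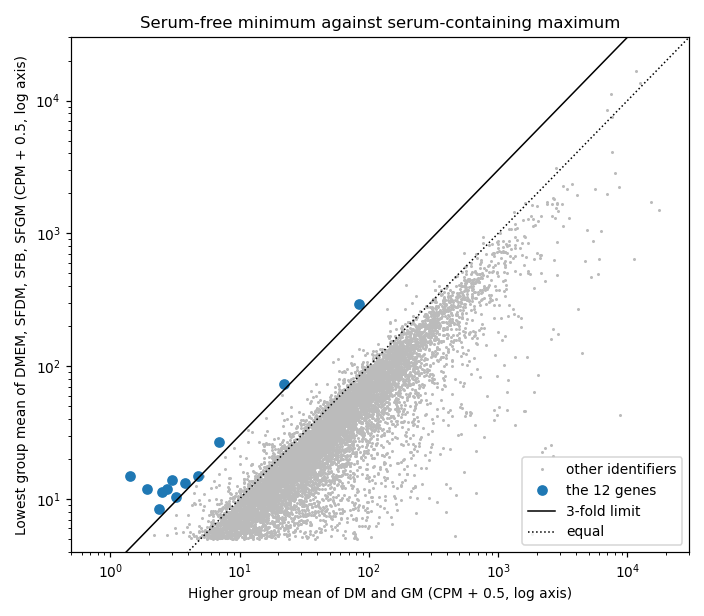
Lowest group mean of the 4 serum-free media (vertical) against the higher group mean of DM and GM (horizontal), in CPM + 0.5 on log axes, for the 9981 identifiers with a serum-free minimum of at least 5. The 12 members lie on or above the solid 3-fold line, and most of the other identifiers lie below the dotted line of equality.

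Every serum-free library was above every serum-containing library for all 12 members. The lowest of the 12 serum-free libraries was at least 3 times the highest of the 6 serum-containing libraries for 7 members. The rule demanded a 3-fold gap between the means of the same groups, so nothing is read from these counts. Their share over all identifiers was not computed. On mean CPM, DMEM was 3.52- to 70.4-fold above DM (median over the members 9.90), SFDM 3.75- to 56.5-fold (11.5) and SFB 4.20- to 68.8-fold (10.1). SFGM was 3.35- to 21.3-fold above GM, with a median of 7.15. The test called all 12 higher in SFGM than in GM, where 19.6% of all genes tested were called higher, and nothing is read from this since the rule fixed it.

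Member 1, ENSBTAG00000019060, had the widest gap. Its CPM were 21.8, 22.9 and 22.6 in DMEM (replicates A, B and C), 16.5, 18.8 and 18.7 in SFDM, 13.4, 16.2 and 13.3 in SFB, and 19.4, 18.5 and 20.7 in SFGM. They were 0.429, 0.400 and 0.128 in DM and 1.13, 0.955 and 0.657 in GM. The gene was close to silent in serum, with 11, 9 and 3 reads in the DM libraries and 32, 27 and 17 in the GM libraries. Its lowest serum-free library was 11.7 times its highest serum-containing one, the largest such ratio of the 12. Among all identifiers with a count it stood at the 59.5th percentile of SFGM and the 30.3rd of GM, and at the 63.9th of DMEM and the 22.4th of DM.

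Member 2, ENSBTAG00000005603, had 16.6, 18.1 and 21.0 CPM in DMEM, 24.7, 25.5 and 31.7 in SFDM, 46.4, 51.1 and 35.6 in SFB, and 12.8, 10.8 and 10.7 in SFGM. In DM it had 0.584, 0.800 and 0.638 CPM and in GM 1.45, 1.31 and 1.51. No library of any of the 6 groups overlapped with another group's, and the order ran from SFB at the top through SFDM, DMEM, SFGM and GM to DM. Member 3, ENSBTAG00000001725, kept the same order among the serum-free media over a wider range. It had 71.0, 76.2 and 80.0 CPM in DMEM, 123, 114 and 118 in SFDM, 167, 178 and 166 in SFB, and 13.0, 13.2 and 13.9 in SFGM. In DM it had 2.10, 2.45 and 2.89 CPM and in GM 1.80, 2.37 and 1.58, where the 2 serum-containing groups overlapped.

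Member 11, ENSBTAG00000004081, was close to the limit of the rule. It had 24.5, 22.6 and 24.6 CPM in DMEM, 30.8, 29.7 and 31.2 in SFDM, 25.3, 27.1 and 20.6 in SFB, and 9.63, 9.58 and 10.3 in SFGM. In DM it had 2.03, 2.67 and 2.42 CPM and in GM 2.86, 2.90 and 2.47. SFDM lay above all other groups, DMEM and SFB overlapped, and SFGM was the lowest of the serum-free media.

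Members 8 and 10 were the most abundant and together made up 60.7% of the summed level of the 12 in DMEM, 70.4% in SFDM, 66.8% in SFB and 73.1% in SFGM. Member 8 had 345, 298 and 234 CPM in DMEM, 328, 326 and 280 in SFDM, 316, 310 and 426 in SFB, and 397, 395 and 447 in SFGM. With serum it had 80.6, 71.0 and 97.3 CPM in DM and 52.1, 57.1 and 59.7 in GM. Its serum-free groups lay close together, and replicate C was the lowest in DMEM and SFDM and the highest in SFB and SFGM. Member 10 had 127, 137 and 144 CPM in DMEM, 449, 469 and 494 in SFDM, 432, 456 and 434 in SFB, and 73.8, 73.4 and 70.1 in SFGM. With serum it had 20.8, 19.6 and 19.5 CPM in DM, and in GM 21.7, 20.6 and 22.6. SFDM and SFB overlapped far above DMEM, which was above SFGM. Both genes were also well expressed with serum, member 8 at the 86.6th percentile of DM and the 79.5th of GM.

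The other 6 members were moderate in level. Member 12 had means of 33.3 ± 0.608 CPM in DMEM, 59.7 ± 3.08 in SFDM, 61.5 ± 2.14 in SFB and 14.5 ± 0.348 in SFGM, with 1.97 ± 0.208 in DM and 4.26 ± 0.552 in GM (SD, n = 3 each, here and below). Member 6 averaged 32.1 ± 0.530 CPM in DMEM, 26.5 ± 1.87 in SFDM, 27.4 ± 0.323 in SFB and 47.9 ± 1.50 in SFGM, with 4.13 ± 0.331 in DM and 6.38 ± 0.284 in GM. Member 9 averaged 15.9 ± 1.02 CPM in DMEM, 15.4 ± 1.06 in SFDM, 12.7 ± 3.13 in SFB and 22.8 ± 2.95 in SFGM, with 2.42 ± 0.477 in DM and 3.32 ± 0.515 in GM. Members 6 and 9 thus had their highest level in SFGM, and member 12 had its lowest serum-free level there.

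Member 4 was the flattest of the 12 across the serum-free media, at 11.8 ± 1.13 CPM in DMEM, 12.6 ± 2.14 in SFDM, 12.5 ± 1.46 in SFB and 10.9 ± 0.809 in SFGM. It had 1.26 ± 0.181 CPM in DM and 2.00 ± 0.299 in GM. All 4 serum-free groups of member 4 overlapped.

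Members 5 and 7 varied widely between replicates. Member 5 had 16.4, 20.9 and 27.8 CPM in DMEM, 9.59, 10.8 and 14.0 in SFDM, 18.9, 20.6 and 11.3 in SFB, and 14.4, 13.9 and 10.2 in SFGM. In DM it had 2.26, 3.33 and 1.11 CPM and in GM 1.77, 2.19 and 0.966. Member 7 had 17.3, 19.5 and 25.1 CPM in DMEM, 7.92, 8.50 and 12.1 in SFDM, 6.83, 8.31 and 8.41 in SFB, and 16.4, 16.6 and 13.8 in SFGM. In DM it had 1.91, 2.71 and 0.978 CPM and in GM 2.19, 2.55 and 0.734. In both genes replicate C was the lowest library of SFGM, DM and GM and the highest of DMEM and SFDM. For member 7, C was at 0.423 of the mean of A and B in DM and at 0.310 in GM.

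**Figure D2:**
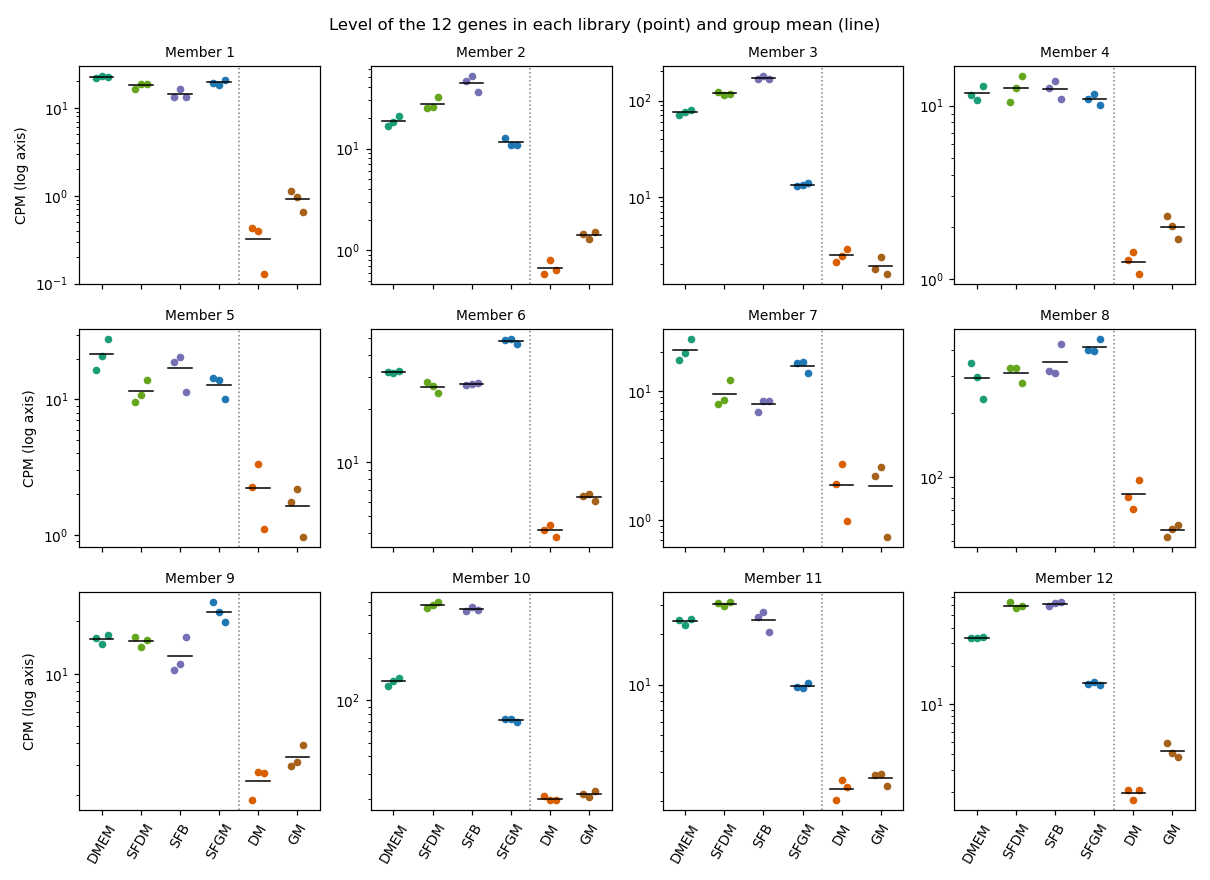
CPM of each of the 12 members (log axis) in the 3 libraries of each group, drawn from left to right as replicates A, B and C, with the group mean as a line. The dotted line separates the 4 serum-free media from DM and GM, and in each panel every point left of it is above every point right of it.

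The spread between replicates, as the SD of log2 CPM within a group, was not wider for the members than for genes in general in the 3 serum-free media at 72 h. Its median over the members was 0.0900 in DMEM, 0.104 in SFDM and 0.170 in SFB, against 0.171, 0.139 and 0.191 over all genes tested. In SFGM the medians were 0.0925 and 0.0903. In the serum-containing media, where the members were low, they were 0.221 for the members against 0.171 in DM, and 0.196 against 0.120 in GM.

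The summed level of the 12 was 704 ± 27.8 CPM in DMEM, 1111 ± 2.80 in SFDM, 1184 ± 49.7 in SFB and 664 ± 20.3 in SFGM. It was 123 ± 10.9 CPM in DM and 104 ± 2.41 in GM. Without members 8 and 10 it was 276 ± 19.2 CPM in DMEM, 329 ± 10.5 in SFDM, 393 ± 21.8 in SFB and 179 ± 7.96 in SFGM, with 19.7 ± 2.59 in DM and 26.4 ± 2.61 in GM. The serum-free media did not rank the genes alike. DMEM, SFDM, SFB and SFGM were each the highest medium for 3 members, and SFGM was the lowest serum-free medium for 6.

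The rule fixed no direction between the serum-free media, and it capped only the difference between SFDM and DMEM. It did require each serum-free mean to be at least 3 times the higher serum-containing mean, which limited falls but not rises. In members 10, 11 and 12 SFGM was the lowest serum-free medium, at ratios of 3.29, 3.18 and 3.15. Little room was left there for a lower level at 72 h. Differences between the serum-free media were tested with edgeR's quasi-likelihood test, adjusted by Benjamini-Hochberg over all 14637 genes that passed the expression filter. All 12 members passed that filter.

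After 72 h the members had split. Members 2, 3, 10, 11 and 12 rose above SFGM in SFB, SFDM and DMEM alike, members 6 and 9 fell in all 3, and the other 5 members passed the test in some media only. Of all 14637 genes tested, 17.9% were called higher in all 3 media and 19.8% lower in all 3, and the split is given as a description of the 12 and not as a trait that sets them apart. In SFB against SFGM 10 members were called, 6 higher and 4 lower, where 58.4% of all genes tested were called (28.6% higher and 29.9% lower). In SFDM 8 were called, 6 higher and 2 lower, with 61.5% of all genes (28.0% higher and 33.5% lower), and in DMEM 9, 6 higher and 3 lower, with 63.4% (32.1% higher and 31.3% lower). As shares of the 12, these counts are 83.3%, 66.7% and 75.0%. With the libraries of replicate C left out of every group, 11, 9 and 10 members were called. The share of all genes called moved between settings too, from 41.9% to 66.9% in SFB, 44.7% to 68.2% in SFDM and 46.3% to 68.7% in DMEM. These counts are therefore not read as a result about the members. Over the members the median log2 fold change from SFGM was 0.42 (SFB), 0.20 (SFDM) and 0.62 (DMEM), and over all genes tested it was -0.02, -0.06 and 0.00046. The rule left the members more room to rise from SFGM than to fall, so nothing is read from these medians or from the balance of directions. The 3 comparisons share the SFGM libraries, and no SFGM culture was taken at 72 h, so medium and time cannot be told apart in them.

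Member 3 changed the most. It rose 13.8-fold in SFB (log2 fold change 3.79 ± 0.0979 SE, edgeR adjusted p = 1.03e-14), 9.77-fold in SFDM and 5.95-fold in DMEM over SFGM. Member 10 rose 7.17-fold in SFDM (log2 fold change 2.84 ± 0.0601 SE, edgeR adjusted p = 3e-16), 6.60-fold in SFB and 1.97-fold in DMEM. Member 12 rose 4.60-fold in SFB, 4.54-fold in SFDM and 2.41-fold in DMEM. Member 2 rose 4.20-fold in SFB, 2.63-fold in SFDM and 1.70-fold in DMEM, and member 11 rose 2.68-fold, 3.43-fold and 2.56-fold in the same media. The largest edgeR adjusted p of these 15 differences was 0.000105. For members 10, 11 and 12 the rule left little room for a fall from SFGM. The direction of their change is therefore not read as a result. No library of a 72 h medium overlapped with an SFGM library in any of them, and how often this holds among all genes was not counted.

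As a sum, the 5 rising members stood at 287 ± 16.3 CPM in DMEM, 707 ± 23.2 in SFDM and 742 ± 29.3 in SFB, against 122 ± 2.31 in SFGM. In serum-based culture the same 5 stood at 27.5 ± 0.176 CPM in DM and 32.0 ± 0.698 in GM. Member 10 alone made up 136 CPM of the sum of the 5 in DMEM, 471 in SFDM and 441 in SFB. Members 6 and 9 together stood at 48.0 ± 1.55 CPM in DMEM, 41.9 ± 2.37 in SFDM and 40.2 ± 3.45 in SFB, against 70.7 ± 4.22 in SFGM. Both sets were formed by their calls in these same libraries. The direction of their sums against SFGM is therefore set by the grouping.

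**Figure D3:**
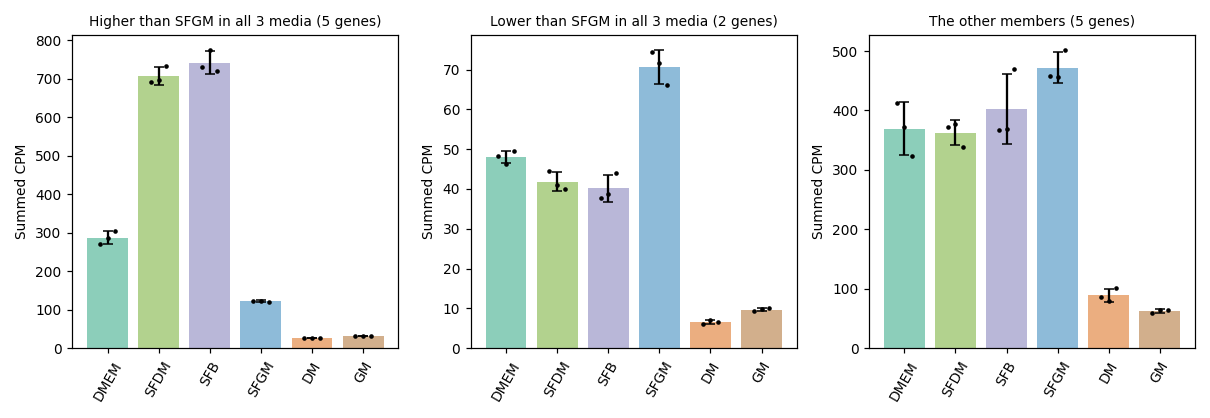
Summed CPM of the 5 members higher than SFGM in all 3 media at 72 h (left), the 2 members lower in all 3 (middle) and the other 5 (right), by group; bars are means, error bars SD over 3 libraries and points libraries. The left sum is highest in SFB and SFDM, at 742 and 707 CPM, the middle one in SFGM, at 70.7 CPM, and all 3 sums are lowest in DM and GM. The genes were grouped by calls in these same libraries, which sets the direction against SFGM in the left and middle panels.

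Member 6 fell 1.61-fold in SFB (log2 fold change -0.69 ± 0.0684 SE, edgeR adjusted p = 2.13e-07), 1.64-fold in SFDM and 1.42-fold in DMEM. Member 9 fell 1.65-fold in SFB (edgeR adjusted p = 0.000843), 1.35-fold in SFDM (0.0250) and 1.37-fold in DMEM (0.0179). The SFDM call of member 9 was lost without SFGM replicate A, SFGM replicate B or SFDM replicate B, or with RLE scaling, and the DMEM call without SFGM replicate A or DMEM replicate B. Replicate A had the highest and C the lowest SFGM value of this gene, at 25.8 and 19.9 CPM.

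The other 5 members gave 6 calls, and 5 of these were lost when a single library was left out. Member 8 was 1.34-fold lower in DMEM than in SFGM (log2 fold change -0.43, edgeR adjusted p = 0.0179), with log2 differences of -0.27 in SFDM and -0.12 in SFB that did not pass. Member 5 was 1.78-fold higher in DMEM (edgeR adjusted p = 0.0168). Both DMEM calls were lost without replicate C of DMEM or of SFGM. They held with replicate C left out of every group, a setting chosen after seeing the data. Member 7 fell 1.83-fold in SFB (log2 fold change -0.87, edgeR adjusted p = 0.0114), and its log2 differences of -0.57 in SFDM and 0.47 in DMEM did not pass. This SFB call held without any single library.

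Member 4 was 1.25-fold higher in SFB and 1.29-fold higher in SFDM (edgeR adjusted p = 0.0493 and 0.0261), although the libraries overlapped in both. Its SFB call was lost without any one of SFGM replicates A, B or C or SFB replicates A or B. Its SFDM call was lost without SFGM replicate A or C, or SFDM replicate B or C, and both were lost with libraries scaled by their totals alone. Member 1 was 1.26-fold lower in SFB than in SFGM (edgeR adjusted p = 0.0400), a call that was lost without any one of the 3 SFGM libraries or without SFB replicate A or C, and also with RLE scaling. In SFDM the log2 difference of member 1 from SFGM was 0.03, with a 95% interval of -0.25 to 0.31.

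**Figure D4:**
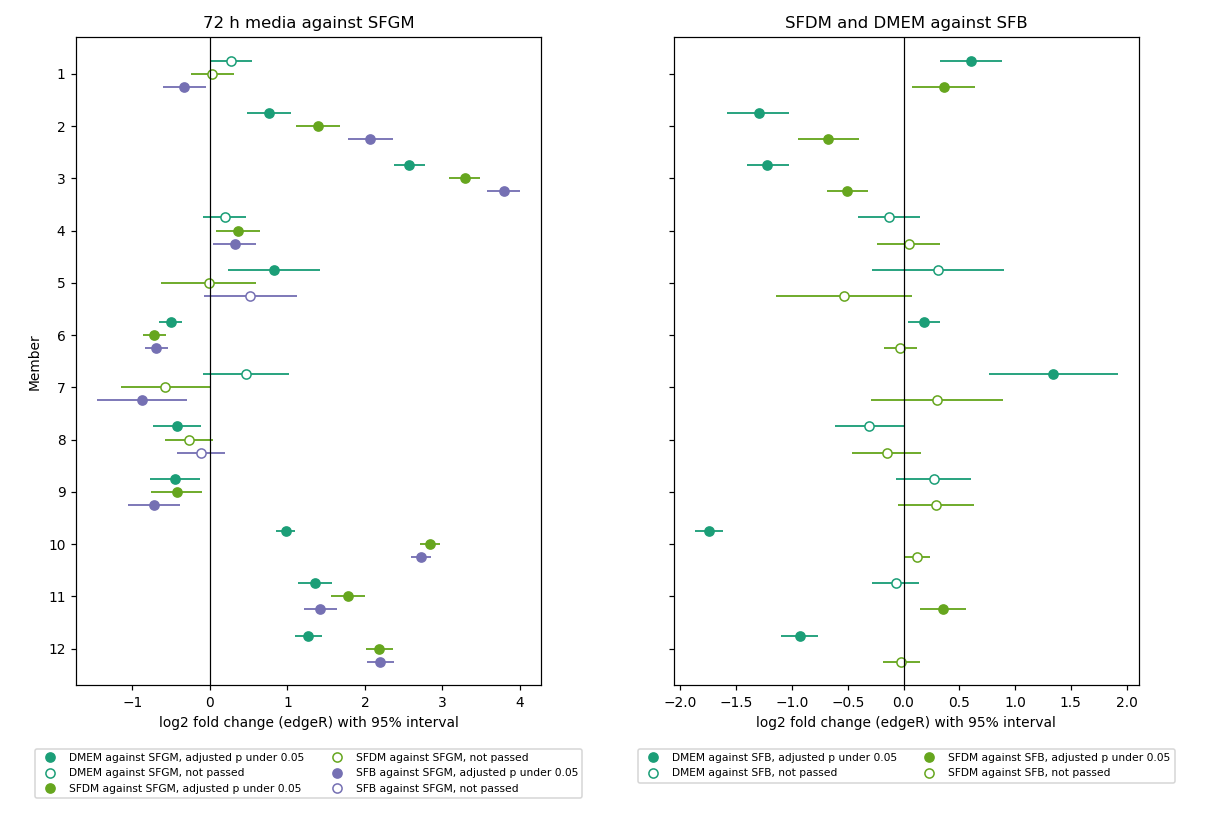
Log2 fold change of each member with its 95% interval (edgeR), for DMEM, SFDM and SFB against SFGM (left) and DMEM and SFDM against SFB (right); filled points passed an adjusted p of 0.05 and open ones did not. Members 2, 3, 10, 11 and 12 lie right of 0 in the left panel for all 3 media, and members 2, 3, 10 and 12 lie left of 0 in the right panel for DMEM.

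Set against the base medium at the same time, SFDM differed in 4 of the 12 members by the test, 2 higher and 2 lower. This is a share near the 34.8% of all genes called (14.8% higher and 20.0% lower). The median log2 difference was 0.01 over the members and -0.04 over all genes tested. Member 2 (ENSBTAG00000005603) was 1.60-fold lower in SFDM and member 3 (ENSBTAG00000001725) 1.42-fold lower (edgeR adjusted p = 0.000634 and 0.000222). Member 1 (ENSBTAG00000019060) and member 11 (ENSBTAG00000004081) were both 1.28-fold higher in SFDM (edgeR adjusted p = 0.0441 and 0.0105). For each of these 4 genes all SFDM libraries lay on the same side of all SFB libraries, and the share of all genes for which this holds was not counted. The call of member 1 was lost without SFB replicate A or C or SFDM replicate B or C, or with totals alone. Members 10 and 12 did not pass, with 95% intervals of the log2 difference of 0.00111 to 0.24 (edgeR adjusted p = 0.111) and -0.18 to 0.15 (edgeR adjusted p = 0.876).

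DMEM was set against the base medium in the same way. In DMEM against SFB 7 members passed, 3 higher and 4 lower, where 40.9% of all genes were called (20.8% higher and 20.1% lower). The share of all genes called was also larger here than the 34.8% in SFDM against SFB. Over the alternatives the member count ran from 5 to 9 in DMEM and from 1 to 6 in SFDM. These counts are therefore not read as a result about the members. Of the 5 members that rose above SFGM in every medium, 4 were lower in DMEM than in SFB. These 5 were grouped by calls in the same libraries. The matching share among all genes called higher in all 3 media was not counted, so this describes the 5 only. Member 10 was 3.35-fold lower (log2 fold change -1.74 ± 0.0576 SE, edgeR adjusted p = 6.57e-13), member 2 2.47-fold lower, member 3 2.33-fold lower and member 12 1.91-fold lower, with a largest edgeR adjusted p of 4.9e-07. The fifth, member 11, had a log2 difference of -0.07 with a 95% interval of -0.28 to 0.14.

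Members 7, 1 and 6 were higher in DMEM than in SFB. Member 7 was 2.53-fold higher (log2 fold change 1.34 ± 0.272 SE, edgeR adjusted p = 0.00077) and member 1 1.52-fold higher (edgeR adjusted p = 0.00135). SFB was the lowest serum-free medium of member 7, at a ratio of 3.53 to the higher serum-containing mean. The rule thus left DMEM little room below SFB in that gene. Member 6 was 1.13-fold higher (edgeR adjusted p = 0.0443), and leaving out any one DMEM or SFB library ended that call. The median log2 difference of the 12 from SFB was -0.10 in DMEM, against -0.0015 over all genes tested.

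The rule capped 2 further differences, so these are descriptions. Between DMEM and SFDM 8 members were called, 3 higher and 5 lower in DMEM, where 46.7% of all genes were called (24.2% higher and 22.4% lower). The largest difference was in member 10, at 136 ± 8.95 CPM in DMEM and 471 ± 22.4 in SFDM. Between DM and GM 7 members were called, 2 higher and 5 lower in DM, where 69.8% of all genes were called (34.2% higher and 35.6% lower). Members 3 and 8 were the 2 higher in DM, and members 1, 2, 4, 6 and 12 the 5 lower.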

How the data were processed

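The authors deposited counts, whole numbers of reads per Ensembl bovine gene identifier, for 18 libraries. The submitters' processing notes name bosTau9, STAR 2.7 and featureCounts; the strand setting, annotation release and aligner parameters are not given, so reads of overlapping or near-identical genes could be split or lost. Columns were matched to samples by their labels. CPM in the text use library totals; fold changes use TMM-scaled totals. Genes were kept by filterByExpr (minimum count 10, minimum total 15), and all 18 libraries entered 1 edgeR 4.0.16 quasi-likelihood model in R 4.3.3 with 6 group means, using two-sided contrasts and Benjamini-Hochberg adjustment at 0.05. SE are the log2 fold change divided by the square root of F. P-values weigh a difference between group means against the spread between replicate cultures, estimated over all 6 groups. What sets the replicate cultures apart is not stated, so part of that spread may be technical. The fit was tried on simulated SFDM against SFB counts with the same spread for every gene and no replicate standing apart. Replicate C did stand apart in these data, so that trial says little about them.

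The members, gene lists and tests were chosen with earlier results of these data known. Of 37063 entries in the reference gene table, 0 carried an identifier of the count table. Symbol lists, cell type markers and promoter motifs planned for this set were therefore not used. In place of symbols, the 4 identifiers given are those of the members that differed most upwards (2) and downwards (2) in SFDM against SFB, among those with adjusted p under 0.05 and no overlap between libraries. Alternatives were RLE scaling, totals alone, no or a stricter filter (1 CPM in 3 libraries and 30 counts in all), DESeq2 1.42.0, only the compared groups, the replicate letter as a block, leaving out each library, and other settings of the rule.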

Additional observations from a re-analysis of the deposited data

Results flagged for a closer look

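In 2 members the change from SFGM over 72 h had opposite signs in SFB and in SFDM or DMEM, and the direct test against SFB passed. How many of all genes tested meet this was not counted, so the number is not read as a result about the members. DMEM against SFDM was not considered here, because the choice of the members capped that difference. Such a difference equals the comparison of the 2 media, since both are set against the same SFGM libraries. Member 7 was at a log2 change of 0.47 in DMEM and -0.87 in SFB, a difference of 1.34 (edgeR adjusted p = 0.00077), with 20.6 ± 4.01 CPM in DMEM, 7.85 ± 0.883 in SFB and 15.6 ± 1.55 in SFGM (SD, n = 3). Member 1 was at 0.27 in DMEM and -0.33 in SFB, a difference of 0.60 (edgeR adjusted p = 0.00135), and at 0.03 in SFDM, a difference from SFB of 0.36 (edgeR adjusted p = 0.0441). Of the changes from SFGM themselves, the 2 in SFB passed the test, and those in DMEM and SFDM did not. For member 7 SFB was the lowest serum-free medium and close to the 3-fold limit, so the rule left DMEM little room below it. For member 1 the sign of the SFDM change turned in 3 of 15 alternatives. Its call in SFB against SFGM was lost in 9 of them, in SFDM against SFB in 8 and in DMEM against SFB in 1.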

How the results depend on the processing

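The set itself depended on the limits. It held 38 genes at 2-fold and 5 at 4-fold, and 6 when the lowest serum-free library had to be 3 times the highest serum-containing one with 0.5 added. TMM-scaled totals, medians, and pseudocounts of 0.1 and 1 gave 11 to 13 genes, and leaving out a replicate letter gave 11 to 14. The counts of members called stayed within 1.5 times under all alternatives except in SFDM against SFB, where the replicate block with only the compared groups called 1 of 12 in place of 4, ending the calls of members 1, 2 and 11. Same-letter deviations correlated above 0.1 for every letter in none of the 5 comparisons. The closest was SFB against SFGM, at 0.0934, 0.186 and 0.336 for letters A, B and C. With the letter as a block, the calls of members 1 and 4 in that comparison were lost. The letters were not taken to pair the libraries, and what they mark is not known. Leaving out each library gave 8 to 10 members called in SFB, 6 to 8 in SFDM and 7 to 9 in DMEM against SFGM, and 3 to 5 in SFDM and 6 to 7 in DMEM against SFB. With replicates A and B alone, chosen after seeing the data, these were 11, 9, 10, 6 and 9. Of the 38 calls, 26 held in every alternative, 12 were lost in 1 or more, and none changed sign. The share of all genes called moved between settings as well, so the changing counts above are not a result about the members alone. It ran from 41.9% to 68.7% in the comparisons with SFGM and from 10.1% to 61.4% in those with SFB. Scaling by totals alone shifted the median of all genes by -0.141 in SFDM against SFGM and by -0.116 in SFB against SFGM. Sign changes were limited to 9 differences that had not passed. In SFDM against SFGM member 1 was at -0.11 with totals alone, and member 5 at 0.05 with RLE scaling or DESeq2, 0.06 with only the compared groups, 0.0043 with the replicate block and 0.06 with the block and only those groups. In SFDM against SFB, member 6 was at 0.02 with RLE scaling or DESeq2 and 0.01 with only the compared groups, with or without the block, and member 12 at 0.03, 0.03, 0.02 and 0.02. With replicates A and B alone, SFDM against SFB gave -0.16, 0.03, 0.09 and 0.01 for members 4, 6, 8 and 12, and DMEM against SFB gave -0.13 and 0.0016 for members 5 and 8. Over leaving out a library, the range was -0.01 to 0.08 for member 1 and -0.19 to 0.09 for member 5 in SFDM against SFGM. In SFDM against SFB it was -0.08 to 0.15 for member 4, -0.08 to 0.02 for member 6, -0.23 to 0.02 for member 8 and -0.06 to 0.01 for member 12, and in DMEM against SFB -0.17 to 0.02 for member 11. The causes were not tested. Depth limits the serum side, where member 1 had as few as 3 reads in a library.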
